A study of Mus musculus with 18 samples.

Results

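The collagen gene family was followed through the epidermis, dermis and whole skin of mice in which Notch signalling was switched on in the epidermis. The members were all genes with an annotated symbol of the form Col, a type number, a and a chain number, without Col17a1 and Col7a1, which build the anchoring structures of keratinocytes. They numbered 40 of the 18193 genes named on the array, read by 80 probe sets. Where several probe sets read a gene, the brightest one on average stood for it, and 30 of the 40 genes lay above the filter on dim signal, a mean log2 signal of 3.15, and were tested. By structural type, 8 of 11 fibrillar genes were tested, 8 of 9 network-forming genes, 3 of 5 genes of the microfibrillar collagen VI, 7 of 9 fibril-associated genes, 2 of 3 transmembrane genes and both multiplexins.

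The transgenic animals carried K14NICDER, in which the keratin 14 promoter, active in basal keratinocytes and their hair follicle counterparts, drives the Notch intracellular domain fused to a hormone-binding domain, so that the protein becomes active when 4-hydroxytamoxifen (4OHT) is applied. Wild-type controls received 4OHT as well. All mice were female C57Bl6xCBA F1 animals, 7 weeks old at the start and treated for 14 days. RNA of epidermis, dermis and undivided whole skin from each genotype was hybridised to 3 arrays a group, 18 arrays in all. The labels do not say which arrays of different tissues came from the same animal, and p-values here weigh differences against the scatter of these samples, which may be in part technical.

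Collagens are secreted proteins whose chains wind into stiff helices. The fibrillar collagens I and III make up most of the dermis, and collagen V is built into their fibrils, where it limits fibril width. Collagen IV forms the sheet of every basement membrane, collagen VIII a related lattice, and collagen VI the beaded microfibrils that surround cells and link them to the matrix. Collagens XII, XIV and XVI sit on fibril surfaces, while XV and XVIII lie at basement membranes. In skin the main producers are the fibroblasts of the dermis, but vessel cells, Schwann cells and keratinocytes make particular chains.

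Values are log2 of the deposited signal, so a difference of 1 is a 2-fold change, and levels of different genes are not compared because their probes differ. The within-group SD, as the median over tested genes, was 0.177 and 0.182 in wild-type and transgenic whole skin and 0.329 to 0.54 in the 4 groups of separated layers. The layers were enriched, not pure. The summed signal of 12 differentiated keratinocyte markers, given as log2 of the sum of linear signals, was 15.35 to 15.86 in the epidermis arrays and 12.93 to 14.62 in the dermis arrays. That of 8 basal keratinocyte markers lay much closer between layers. It was 13.88 to 14.32 in wild-type epidermis and 13.60 to 13.80 in wild-type dermis, and 13.44 to 13.52 and 13.29 to 13.45 in transgenic skin. The dermis arrays thus carried basal keratinocyte signal as well. The summed signal of 15 fibroblast markers that are no collagens was 13.87 to 14.34 in dermis and 11.79 to 12.89 in epidermis. Skeletal muscle markers ranged from 8.84 to 14.52 across dermis arrays of both genotypes, and their part in the collagen values was not tested. Differences were tested with limma and called at a Benjamini-Hochberg adjusted p under 0.05 over 13739 genes.

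Of the 30 collagens tested in wild-type skin, 18 were higher in dermis than in epidermis and 0 lower, against 12.7% of all genes called higher in dermis and 6.83% called lower, and their median log2 difference was 1.45 against 0.051 over all genes. In bulk tissue such as this, fewer cells of a type and less RNA per cell cannot be told apart. Col8a2, a chain of the collagen VIII lattice, read 7.32, 7.61 and 7.72 in dermis and 2.96, 3.20 and 1.62 in epidermis (log2 difference 4.95 ± 0.48 SE, limma adjusted p = 0.000273). Its groups did not overlap, but the epidermis mean of 2.60 lay under the filter, and the difference ran from 3.17 to 5.39 over the alternative settings, with its call kept in each. Col5a2, a collagen V chain, read 9.28, 10.00 and 9.94 against 4.84, 6.95 and 5.12 (4.10 ± 0.49, limma adjusted p = 0.000611). All 3 tested collagen VI chains were higher in dermis, Col6a3 by 3.62 ± 0.51, Col6a1 by 2.59 ± 0.35 and Col6a2 by 2.57 ± 0.31, with limma adjusted p between 0.000677 and 0.0013.

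The remaining genes among the 12 largest differences came from most types. They were Col8a1 (3.45), the transmembrane collagen gene Col13a1 (3.20), Col5a1 (2.63), the basement membrane chain gene Col4a2 (2.62), the fibril-associated genes Col14a1 (2.62) and Col9a3 (2.35), and Col1a2 (1.96). The epidermis means of Col8a1 (2.62) and Col13a1 (3) lay under the filter. The Col13a1 difference ran from 1.88 to 3.65 over the alternative settings, with its call kept in each. Also called were Col15a1, Col5a3, Col3a1, Col4a1, Col16a1 and Col1a1, with differences from 1.02 to 1.75. The Col8a1 value rested on its brightest probe set. Its 2 other probe sets differed by -0.68 and 1.69 and were not called, nor was the mean of its probe sets (1.48). Col8a1 kept its call in 4 of 6 fits that left out an array. Col1a1, the main chain of collagen I, read 12.27, 12.09 and 11.59 in dermis and 11.04, 11.09 and 10.76 in epidermis on its brightest probe set (1.02). The groups did not overlap, and a second Col1a1 probe set, fitted as a feature of its own, differed by 2.37 and was called too. Several collagens were not called higher in dermis on their brightest probe set. Col4a6 read 7.61, 6.82 and 6.67 in dermis and 7.48, 7.12 and 7.02 in epidermis (difference -0.17, 95% confidence interval -0.88 to 0.53). A second Col4a6 probe set, fitted as a feature of its own, differed by -0.96 and was called lower in dermis. The partner chain Col4a5 differed by 0.35 (-0.51 to 1.22). Col18a1 differed by 0.25 (-0.44 to 0.94), and its second probe set by 1.33 without a call. Col20a1 differed by -1.11 (-1.97 to -0.26, limma adjusted p = 0.0678). Leaving out single arrays kept between 14 and 20 collagens called.

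In transgenic skin the same layer comparison called 10 of 30 collagens higher in dermis and 0 lower, against 10.6% of all genes called higher and 6.67% called lower. Of the 18 genes called in wild-type skin, 15 had a smaller layer difference in transgenic skin and 8 were called there too (44.4%). Of the 1746 genes of any kind called higher in wild-type dermis, 1145 had a smaller difference in transgenic skin (65.6%) and 977 were called there too (56%). All were chosen for a high wild-type difference, so these counts are a description. Those 8 collagens were Col8a2 (4.13), Col13a1 (3.84), Col9a3 (2.96), Col14a1 (2.37), Col15a1 (2.16), Col4a2 (1.80), Col5a2 (1.77) and Col4a1 (1.07). Col3a1 differed by 0.74 on its brightest probe set and was not called. Its second probe set differed by 2.2 and was called, as was the mean of its probe sets (1.47, limma adjusted p = 0.0229). Col11a1 (3.56) and Col4a3 (3.31) were called in transgenic skin and not in wild-type skin, where they differed by 1.31 and 1.13. The value of Col11a1 leaned on 1 transgenic epidermis array at 0.30, beside 3.95 and 3.35 on the others, and Col4a3 kept its call in 1 of 6 fits that left out an array. Of the called genes, Col8a2 (3.14), Col9a3 (2.94), Col11a1 (2.53), Col13a1 (2.44) and Col4a3 (1.11) had transgenic epidermis means under the filter. The sizes of their differences are therefore poorly measured. The collagen VI chains differed between transgenic layers by 1.05 to 1.30 and were not called, with limma adjusted p from 0.0993 to 0.114. Col8a1 differed by -0.57 (95% confidence interval -1.74 to 0.59) between transgenic layers, against 3.45 in wild-type skin on the same probe set. Its 2 other probe sets, fitted as features of their own, differed by -1.6 and -1.39 between transgenic layers, and 1 of them was called lower in dermis. In wild-type skin they differed by -0.68 and 1.69 and were not called. The count of 10 rested on single arrays: it was 5 without transgenic dermis replicate 2, 6 without transgenic epidermis replicate 2 or replicate 3, and 15 without transgenic dermis replicate 1.

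**Figure D1:**
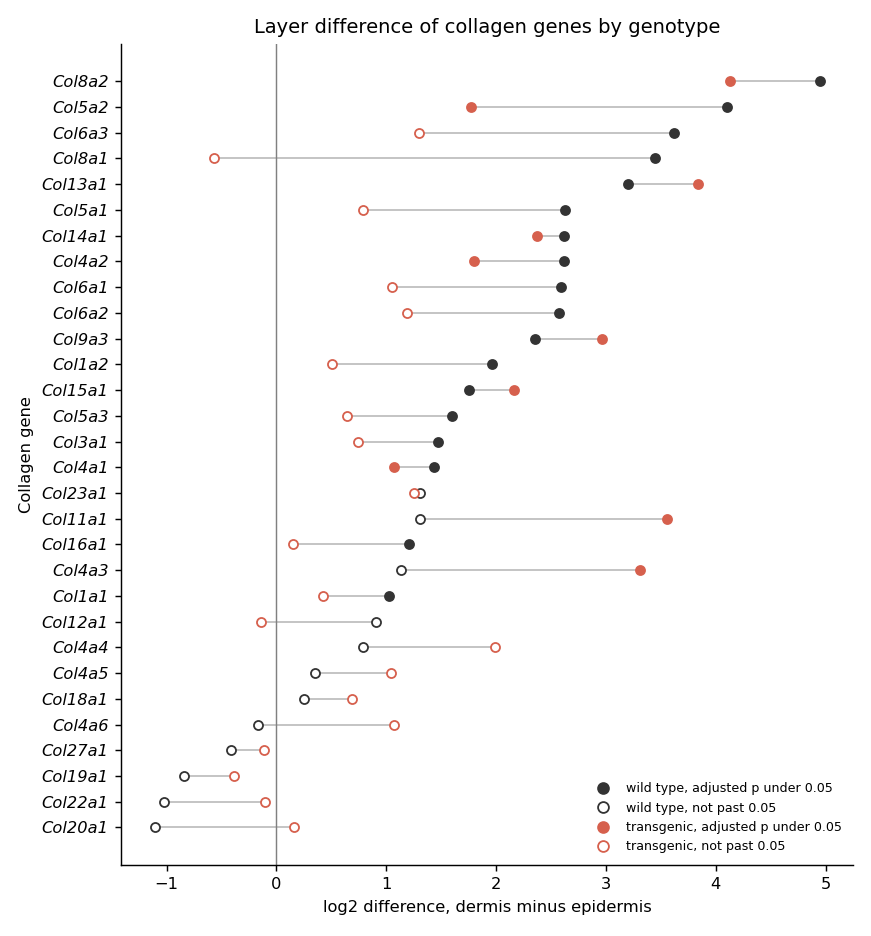
Log2 difference between dermis and epidermis for the 30 tested collagen genes, ordered by the wild-type value, in wild-type mice (black) and transgenic mice (red); filled circles passed an adjusted p of 0.05 and each is a difference of means of 3 arrays a group. Of the 18 genes filled in black, 15 have their red circle to the left, as have 65.6% of all genes called higher in wild-type dermis. Col8a1, whose wild-type epidermis mean lies under the filter, goes from 3.45 to -0.57 on its brightest probe set. Its 2 other probe sets differed by -0.68 and 1.69 in wild-type mice and by -1.6 and -1.39 in transgenic mice.

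More collagens were called between genotypes in epidermis than in dermis or whole skin. Of 30 collagens, 8 were higher in transgenic than in wild-type epidermis, against 1.54% of all genes called higher, and 1 was lower, against 0.844% of all genes called lower. The 8 were all 3 tested chains of collagen VI, all 3 chains of collagen V, Col8a1 and Col12a1, and the lower gene was Col4a6. The shift was not general, since the median over the 30 was -0.052, against -0.095 over all genes. By type, the median was 2.63 over 3 collagen VI genes and 1.11 over 8 fibrillar genes. It was -0.179 over 8 network, -0.323 over 7 fibril-associated, -0.348 over 2 transmembrane and -0.206 over 2 multiplexin genes. At an unadjusted limma p under 0.05, 12 collagens were higher and 3 lower, against 8.79% and 8.83% of all genes. In 11 genes the transgenic arrays all lay above the wild-type arrays, and in 3 all below, against 10.6% and 12.3% of all genes. On the same arrays the summed signals of 8 mural cell and 9 macrophage markers lay higher in transgenic epidermis without overlap, at 9.47 to 9.87 against 8.91 to 9.34 and 11.62 to 12.09 against 10.52 to 11.39. That of 15 fibroblast markers overlapped, at 12.28 to 12.89 against 11.79 to 12.57. A linear sum leans on its brightest genes. By gene, the median difference was 0.243 over the mural cell markers, with 5 of 8 above 0. It was 1.366 over the macrophage markers, with 7 of 9 above 0, and 0.26 over the fibroblast markers, with 10 of 15. The part of these cell types in the collagen differences was not tested. These arrays are those of the layer comparisons, so the smaller layer differences in transgenic skin and the values given here are no independent observations.

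All 3 tested collagen VI genes rose. The chains Col6a1, Col6a2 and Col6a3 assemble with each other into one molecule. Col6a2 read 10.28, 10.25 and 9.57 in transgenic epidermis and 7.35, 7.88 and 6.97 in wild-type epidermis, a difference of 2.63 ± 0.30 SE or 6.20-fold (limma adjusted p = 0.0021). Col6a1 read 10.26, 9.62 and 8.71 against 6.67, 7.80 and 6.49 (2.55 ± 0.43, limma adjusted p = 0.0164). Col6a3 read 9.74, 8.00 and 7.83 against 4.85, 6.54 and 4.18, a difference of 3.33 ± 0.63 or 10.0-fold (limma adjusted p = 0.0237). In each of the 3 genes every transgenic array was above every wild-type array. The transgenic epidermis arrays reached the wild-type dermis range for Col6a2, where wild-type dermis read 9.48 to 10.30.

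The collagen V genes rose in the same arrays. Col5a2 read 9.55, 8.57 and 8.03 in transgenic and 4.84, 6.95 and 5.12 in wild-type epidermis (3.08 ± 0.55, limma adjusted p = 0.0189). Col5a1 read 10.15, 10.03 and 9.27 against 7.97, 7.98 and 6.91 (2.20 ± 0.35, limma adjusted p = 0.0117). Col5a3, whose chain joins the other two in some collagen V molecules, read 7.97, 8.10 and 7.01 against 5.83, 5.79 and 5.94 (1.84 ± 0.34, limma adjusted p = 0.0213). A second Col5a3 probe set differed by 0.38, and the mean of both probe sets was not called (1.11, limma adjusted p = 0.149).

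Col8a1, which encodes the other chain of the collagen VIII lattice, was called higher in transgenic epidermis. It read 8.78, 7.78 and 6.85 in transgenic and 2.07, 1.43 and 4.38 in wild-type epidermis, a difference of 5.18 ± 0.74 SE (limma adjusted p = 0.00724). The wild-type mean of 2.62 lay under the filter on dim signal, so the size of the difference is poorly measured, and it ran from 3.05 to 5.62 over the alternative settings. The mean of its 3 probe sets differed by 3.05 (limma adjusted p = 0.0126). Its 2 other probe sets differed by 0.71 and 3.25, and 1 of them was called. Its partner Col8a2 read 1.97, 3.62 and 3.84 against 2.96, 3.20 and 1.62, and the genotypes overlapped (0.55, 95% confidence interval -1.37 to 2.46). Col12a1, a fibril-associated collagen, read 8.31, 8.21 and 7.09 against 5.14, 6.05 and 5.30 (2.38 ± 0.40, limma adjusted p = 0.0156). Its 3 other probe sets above the filter differed by 1.41 to 1.65 and none was called.

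The main fibrillar collagens and other family members did not pass the test in epidermis. Col1a1 read 11.76, 12.08 and 11.71 in transgenic and 11.04, 11.09 and 10.76 in wild-type epidermis, without overlap, with a difference of 0.88 (0.36 to 1.40, limma adjusted p = 0.086). Its second probe set differed by 1.67, and Col1a1 was called as the mean of its probe sets (1.28, limma adjusted p = 0.0496) and after quantile normalization (0.88, limma adjusted p = 0.0206). Col1a2 differed by 1.34 (0.37 to 2.30, limma adjusted p = 0.156) and Col3a1, the collagen III chain, by 0.77 (-0.01 to 1.56, limma adjusted p = 0.287), and both overlapped between genotypes. A second Col3a1 probe set differed by 1.76 and was not called. Col14a1 differed by 0.03 (-1.48 to 1.55), Col15a1 by -0.27 (-0.98 to 0.44) and Col18a1 by -0.14 (-0.80 to 0.52). The 2 other Col14a1 probe sets above the filter differed by 1.04 and 1.41 and were not called. The intervals of Col1a1 and Col1a2 leave room for a rise of 2-fold or more, while that of Col18a1 ends short of it. Without wild-type epidermis replicate 2, the array with the most collagen signal in that group for Col1a2, Col3a1 and the collagen VI chains, 14 collagens were called, with Col1a1 (0.95), Col1a2 (1.91) and Col3a1 (1.11) among them.

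The epidermal calls depended on single arrays and on how limma estimated the spread. Col6a2 kept its call in 6 of 6 fits that left out an array, Col8a1 in 5, Col4a6 in 4, Col5a1, Col5a2, Col5a3, Col6a1 and Col12a1 in 3 each, and Col6a3 in 2. The count of 9 calls fell to 1 without transgenic epidermis replicate 1, to 2 without wild-type epidermis replicate 3 and to 3 without transgenic epidermis replicate 2. Without the intensity trend, by which limma lets the spread vary with signal, Col6a2 alone stayed under the threshold (limma adjusted p = 0.0438) and the other 8 had adjusted p from 0.0556 to 0.119. No called collagen changed direction in any of these fits.

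**Figure D2:**
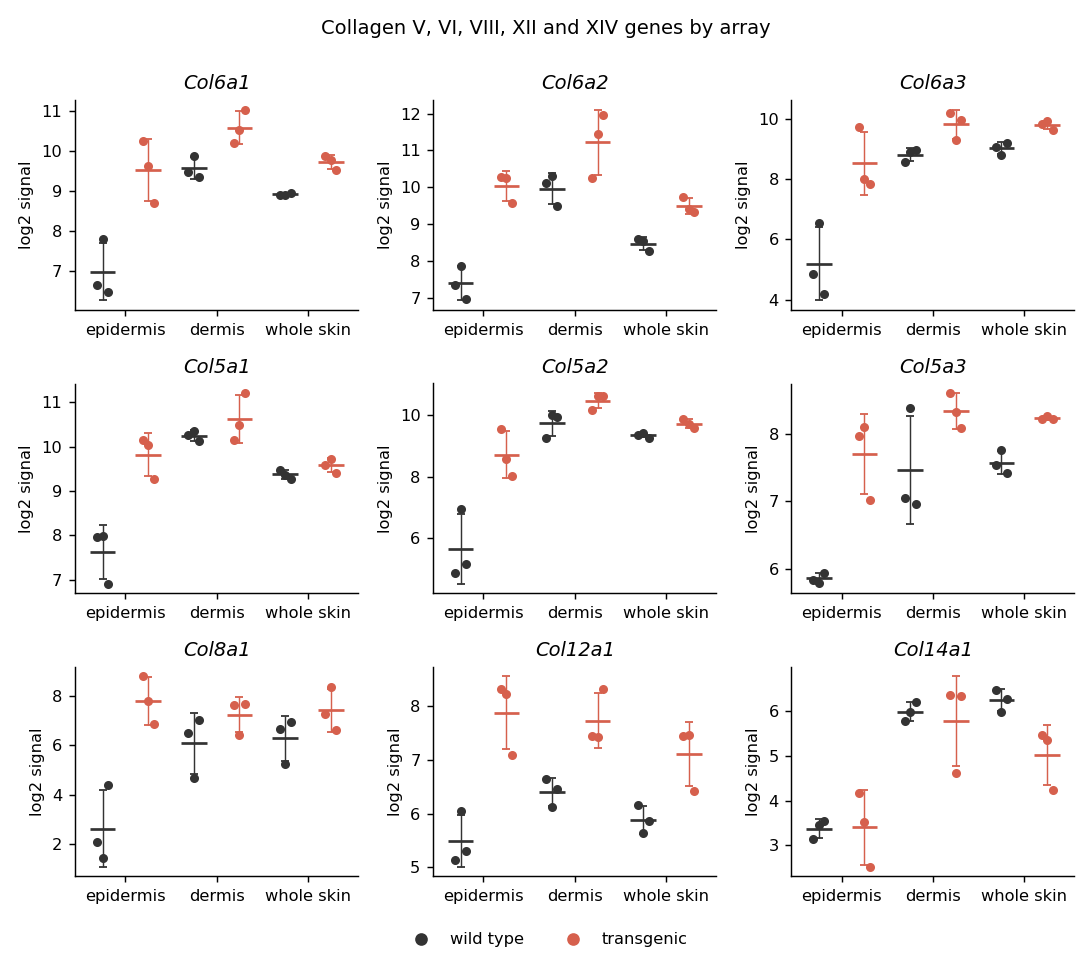
Log2 signal of 9 collagen genes on each array, in wild-type (black) and transgenic (red) epidermis, dermis and whole skin; points are arrays, bars the mean and SD of 3, and each panel has its own axis. For the 3 collagen VI genes every transgenic epidermis array lies above every wild-type epidermis array, and Col14a1 is lower on the transgenic whole skin arrays.

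Of the 6 collagen IV genes, Col4a6 was called lower in transgenic epidermis and whole skin, Col4a1 was called higher in whole skin, and the other 4 were called in no tissue. Col4a1 and Col4a2 form the collagen IV found in all basement membranes, vessels included, whereas Col4a5 and Col4a6 chains join in the basement membranes of epithelia such as the epidermis, and Col4a3, Col4a4 and Col4a5 chains in a few specialised ones. Col4a6 was the only collagen called lower in transgenic epidermis. It read 4.55, 3.82 and 5.24 in transgenic and 7.48, 7.12 and 7.02 in wild-type epidermis, a difference of -2.67 ± 0.41 SE (limma adjusted p = 0.01). A second Col4a6 probe set, fitted as a feature of its own, differed by -2.51 and was called too. In dermis it read 5.79, 5.27 and 5.77 against 7.61, 6.82 and 6.67 (-1.42 ± 0.36, limma adjusted p = 0.574), and in whole skin 5.15, 5.25 and 5.73 against 6.56, 6.16 and 6.56 (-1.05 ± 0.20, limma adjusted p = 0.033). The genotypes did not overlap in any of the 3 tissues. Krt15, a keratin gene of basal and hair follicle keratinocytes, was also lower in transgenic epidermis (-3.66, limma adjusted p = 0.000834), while Krt5 and Krt14 differed by -0.23 and -0.42 and were not called. Krt15 was the called gene of 8 basal keratinocyte markers in epidermis. None of the 8 was called in dermis or whole skin, where the lowest differences on the list were -1.2 and -0.47. Their summed signal was 13.44 to 13.52 on transgenic and 13.88 to 14.32 on wild-type epidermis arrays, 13.29 to 13.45 and 13.60 to 13.80 in dermis, and 13.46 to 13.51 and 13.39 to 13.67 in whole skin. The part of basal keratinocyte number in the Col4a6 difference was not tested.

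Col4a1 was higher in all 3 tissues on every transgenic array. It read 9.67, 9.75 and 9.18 against 9.03, 8.55 and 8.05 in epidermis (0.99, limma adjusted p = 0.12), 10.54, 10.60 and 10.68 against 9.67, 10.37 and 9.87 in dermis (0.63, limma adjusted p = 0.987), and 10.33, 10.36 and 10.33 against 9.78, 9.65 and 9.96 in whole skin (0.54 ± 0.09, limma adjusted p = 0.0182). Only the whole skin difference was called. Col4a2 followed it with 1.57 in epidermis (limma adjusted p = 0.0711), 0.75 in dermis (adjusted p = 0.987) and 0.60 in whole skin (adjusted p = 0.056), and was not called. Col4a5 differed by -0.95, -0.26 and -0.44 in epidermis, dermis and whole skin and was not called, nor were Col4a3 (-2.41, -0.23 and -0.07) and Col4a4 (-0.90, 0.29 and -0.14). The lowest Col4a3 value, -0.63 on 1 transgenic epidermis array, was far under the filter.

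**Figure D3:**
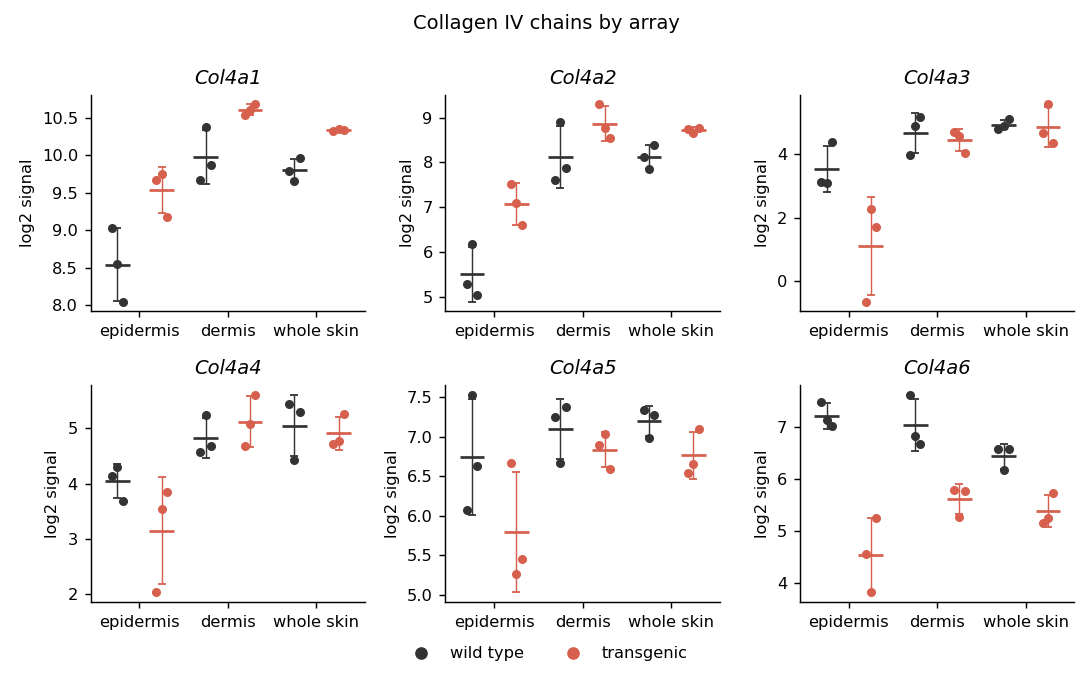
Log2 signal of the 6 collagen IV chains on each array, in wild-type (black) and transgenic (red) epidermis, dermis and whole skin; points are arrays, bars the mean and SD of 3, and each panel has its own axis. Transgenic arrays lie above wild-type arrays in every tissue for Col4a1 and below them in every tissue for Col4a6.

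The collagen IV genes lie in 3 head-to-head pairs on opposite strands: Col4a1 with Col4a2, Col4a3 with Col4a4, and Col4a5 with Col4a6. The start regions of the first and last pair, which hold both called genes, are shown. They are RefSeq windows of build GRCm38.p6 from 250 bases before to 50 after the annotated start, which 31 of the 40 collagen genes have in the table used here. The starts of Col4a1 and Col4a2 are 21 bases apart and their windows share 78 bases, printed in capitals. The starts of Col4a5 and Col4a6 are 1343 bases apart and their windows share none. In that pair the capitals mark letters of 3 motifs searched on both strands: GTGGGAA, a form of the site read by the Notch partner RBPJ, CCAAT, and TGANTCA, the AP-1 site.
Col4a1, chr8:11312777-11313076, minus strand: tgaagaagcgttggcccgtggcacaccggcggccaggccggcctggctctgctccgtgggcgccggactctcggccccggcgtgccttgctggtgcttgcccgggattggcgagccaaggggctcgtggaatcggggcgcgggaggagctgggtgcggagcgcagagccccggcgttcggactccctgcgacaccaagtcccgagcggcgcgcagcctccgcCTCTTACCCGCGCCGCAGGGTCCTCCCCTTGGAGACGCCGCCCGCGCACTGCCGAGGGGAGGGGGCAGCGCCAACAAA
Col4a2, chr8:11312555-11312854, plus strand: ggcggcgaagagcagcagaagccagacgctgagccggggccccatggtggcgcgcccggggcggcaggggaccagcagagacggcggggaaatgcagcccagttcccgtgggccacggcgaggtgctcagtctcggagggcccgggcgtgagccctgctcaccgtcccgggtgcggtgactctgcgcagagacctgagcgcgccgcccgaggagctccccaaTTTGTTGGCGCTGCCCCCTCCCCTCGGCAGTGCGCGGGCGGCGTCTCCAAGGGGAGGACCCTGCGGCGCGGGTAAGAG
Col4a5, chrX:141475169-141475468, plus strand: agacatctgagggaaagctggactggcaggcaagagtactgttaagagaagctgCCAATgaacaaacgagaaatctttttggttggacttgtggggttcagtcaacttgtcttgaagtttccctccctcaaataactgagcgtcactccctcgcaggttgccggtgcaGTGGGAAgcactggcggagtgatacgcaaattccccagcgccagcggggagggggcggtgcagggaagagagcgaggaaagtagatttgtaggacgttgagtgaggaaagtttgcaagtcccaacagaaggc
Col4a6, chrX:141474027-141474326, minus strand: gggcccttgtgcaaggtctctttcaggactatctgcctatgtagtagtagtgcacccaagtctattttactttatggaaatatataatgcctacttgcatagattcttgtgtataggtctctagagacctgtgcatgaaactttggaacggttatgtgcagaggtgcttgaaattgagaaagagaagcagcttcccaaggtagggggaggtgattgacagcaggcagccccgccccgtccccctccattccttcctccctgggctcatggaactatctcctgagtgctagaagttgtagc
The Col4a5 window holds GTGGGAA and CCAAT, which do not overlap there, and the Col4a6 window holds none of the 3 motifs. Across the 34 windows of collagen genes, GTGGGAA was found in 2, those of Col4a5 and Col10a1, against 6.38% of all 32851 windows. CCAAT was found in 11 of 34 against 37.4% of all windows, and TGANTCA in 1, that of Col6a1, against 7.81%. A match of letters is a description of the window and not a binding site.

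In dermis no collagen passed the test between genotypes. Of 30, 0 were called, against 0.0655% of all genes called higher and 0% called lower, which is 9 genes in all. At an unadjusted p under 0.05, 6 collagens were higher and 2 lower, against 2.08% and 2.25% of all genes. The transgenic arrays lay wholly above the wild-type arrays in 6 collagens and wholly below in 2, against 3.91% and 5.33% of all genes. Collagen VI had the same sign as in epidermis. Col6a1 read 10.21, 10.52 and 11.03 in transgenic and 9.49, 9.89 and 9.36 in wild-type dermis (1.01, 95% confidence interval 0.33 to 1.69, limma adjusted p = 0.911). Col6a3 differed by 1.01 (0.33 to 1.70, limma adjusted p = 0.911), and Col6a2 by 1.26 (0.25 to 2.26, limma adjusted p = 0.987) with overlap of the genotypes. Col12a1 read 7.44, 7.43 and 8.31 against 6.63, 6.12 and 6.46 (1.32, 0.57 to 2.07, limma adjusted p = 0.574). Of its 3 other probe sets above the filter, 2 had the same sign and the lowest differed by -0.31.

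The collagens that make up most of the dermis did not pass the test there. Col1a1 read 11.13, 12.52 and 13.14 in transgenic and 12.27, 12.09 and 11.59 in wild-type dermis, with the widest spread of the 2 groups among the transgenic arrays (0.28, 95% confidence interval -0.85 to 1.40). Col1a2 differed by -0.11 (-0.97 to 0.75) and Col3a1 by 0.05 (-0.82 to 0.92). Col5a1 differed by 0.36 (-0.35 to 1.08), Col5a2 by 0.74 (0.08 to 1.41), Col14a1 by -0.22 (-1.34 to 0.90), Col15a1 by 0.14 (-0.51 to 0.80) and Col18a1 by 0.29 (-0.45 to 1.03). Col16a1, a fibril-associated gene, read 8.34, 7.02 and 6.85 against 8.54, 9.07 and 8.51 (-1.30, limma adjusted p = 0.981). Without transgenic dermis replicate 1 it was the only collagen called, at -1.77 ± 0.28 (limma adjusted p = 0.0431).

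In whole skin, where arrays of a group scattered less, 3 of the 6 collagens called were those of collagen VI. Of 30 collagens, 5 were higher in transgenic whole skin, against 1.71% of all genes called higher, and 1 was lower, against 1.08% called lower, and 2 of the 6 changed by 2-fold or more. The median over the 30 was 0.012, against -0.012 over all genes. The transgenic arrays lay wholly above in 9 collagens and wholly below in 4, against 11.6% and 12.7% of all genes. Col6a2 read 9.75, 9.40 and 9.34 in transgenic and 8.61, 8.54 and 8.29 in wild-type whole skin, a difference of 1.02 ± 0.13 SE or 2.03-fold (limma adjusted p = 0.00792). Col6a1 read 9.89, 9.77 and 9.54 against 8.90, 8.91 and 8.94 (0.81 ± 0.10, limma adjusted p = 0.00631), and Col6a3 read 9.84, 9.91 and 9.64 against 9.07, 8.81 and 9.21 (0.77 ± 0.12, limma adjusted p = 0.0151). The genotypes did not overlap in any of these genes.

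The other calls in whole skin were Col5a3, Col4a1 and Col4a6. Col5a3 read 8.21, 8.26 and 8.22 against 7.53, 7.76 and 7.42 (0.66 ± 0.11, limma adjusted p = 0.0217), while Col5a1 differed by 0.20 (-0.03 to 0.44) and Col5a2 by 0.37 (0.15 to 0.59, limma adjusted p = 0.0865). The mean over probe sets was not called for Col5a3 (0.41, limma adjusted p = 0.19), Col4a1 (0.67, adjusted p = 0.0648) or Col4a6 (-0.91, adjusted p = 0.0639). Col12a1 read 7.44, 7.47 and 6.42 against 6.16, 5.64 and 5.86 (1.22 ± 0.28, limma adjusted p = 0.0602) and was called without transgenic whole skin replicate 3 (1.57, limma adjusted p = 0.007). Its 3 other probe sets above the filter differed by -0.28 to 0.81, 2 of them with the same sign, and none was called. Col14a1, the other fibril-associated collagen common in dermis, read 5.46, 5.37 and 4.24 against 6.47, 5.98 and 6.28, lower on every transgenic array (-1.22 ± 0.32, limma adjusted p = 0.0873). The mean of its probe sets was called, at -1.44 (limma adjusted p = 0.0423).

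Collagens I and III did not pass the test in whole skin, and their intervals were narrow. Col1a1 read 11.32, 11.49 and 11.14 in transgenic and 11.25, 11.39 and 11.36 in wild-type whole skin (-0.01, 95% confidence interval -0.22 to 0.19). Col1a2 differed by 0.05 (-0.18 to 0.29) and Col3a1 by 0.00 (-0.22 to 0.22). Col15a1 differed by -0.19 (-0.39 to 0.02) and Col18a1 by -0.03 (-0.34 to 0.28). The calls ended in a fit over all 18 arrays, whose larger layer spread is shared, and without the intensity trend, with 0 collagens called in each (adjusted p from 0.549 to 1 and from 0.0529 to 0.105). Leaving out single arrays kept between 2 and 7 calls, with 2 without wild-type whole skin replicate 1, transgenic whole skin replicate 1 or transgenic whole skin replicate 2. Col6a1 and Col6a2 kept their calls in all 6 such fits, Col4a1 and Col6a3 in 3, and Col4a6 and Col5a3 in 2.

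The epidermis and whole skin comparisons share no array. Of the 8 collagens called higher in epidermis, 4 were called higher in whole skin (50%), and these were 80% of the 5 called there. Over all genes, 91 of the 211 called higher in epidermis (43.1%) were among the 235 called higher in whole skin, and they were 38.7% of the latter. Col4a6 was called lower in both. Across epidermis, dermis and whole skin, the transgenic arrays were all on the same side in 6 of 30 collagens: Col5a2, Col4a1, Col6a1, Col6a3 and Col12a1, which were higher, and Col4a6, which was lower. Over all genes, 0.764% were higher and 0.83% lower in this way.

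**Figure D4:**
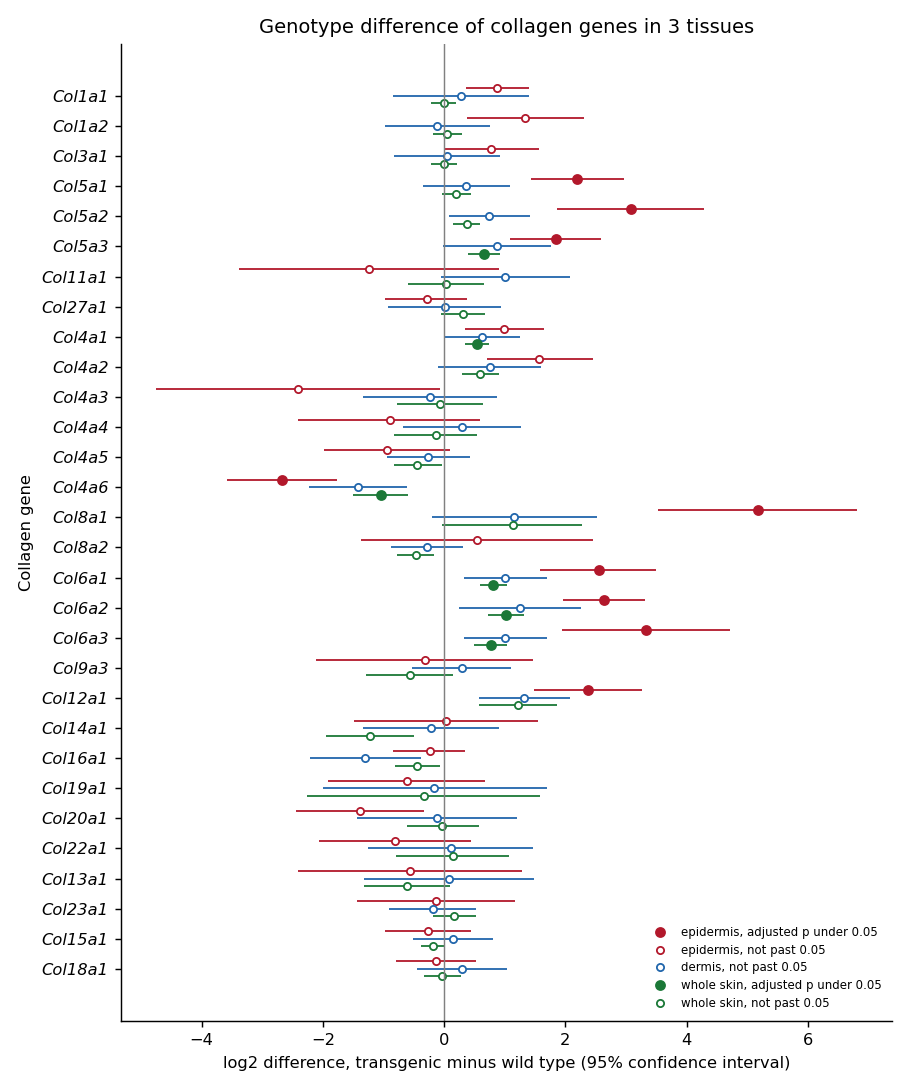
Log2 difference between transgenic and wild type (points) with its 95% confidence interval (lines) for the 30 tested collagen genes in epidermis (red), dermis (blue) and whole skin (green); filled points passed an adjusted p of 0.05. The 3 collagen VI genes are filled in epidermis and whole skin, Col8a1 in epidermis stands at 5.18 with a wild-type mean under the filter, and no dermis point is filled.

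The test of whether the genotype difference itself differed between dermis and epidermis called 0 of 30 collagens, against 0.0218% of all genes called higher and 0% called lower. At an unadjusted p under 0.05 limma had 1 collagen with a positive value and 7 with a negative one, against 3.44% and 4.57% of all genes. Among the 7 were Col8a1 (dermis minus epidermis -4.02, 95% confidence interval -6.34 to -1.69, limma adjusted p = 0.393), Col5a2 (-2.34, -3.83 to -0.84, adjusted p = 0.431), Col6a3 (-2.32, -4.02 to -0.61, adjusted p = 0.535) and Col5a1 (-1.83, -2.90 to -0.77, adjusted p = 0.393). The calls in epidermis alone are therefore not shown to be particular to epidermis.

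**Figure D5:**
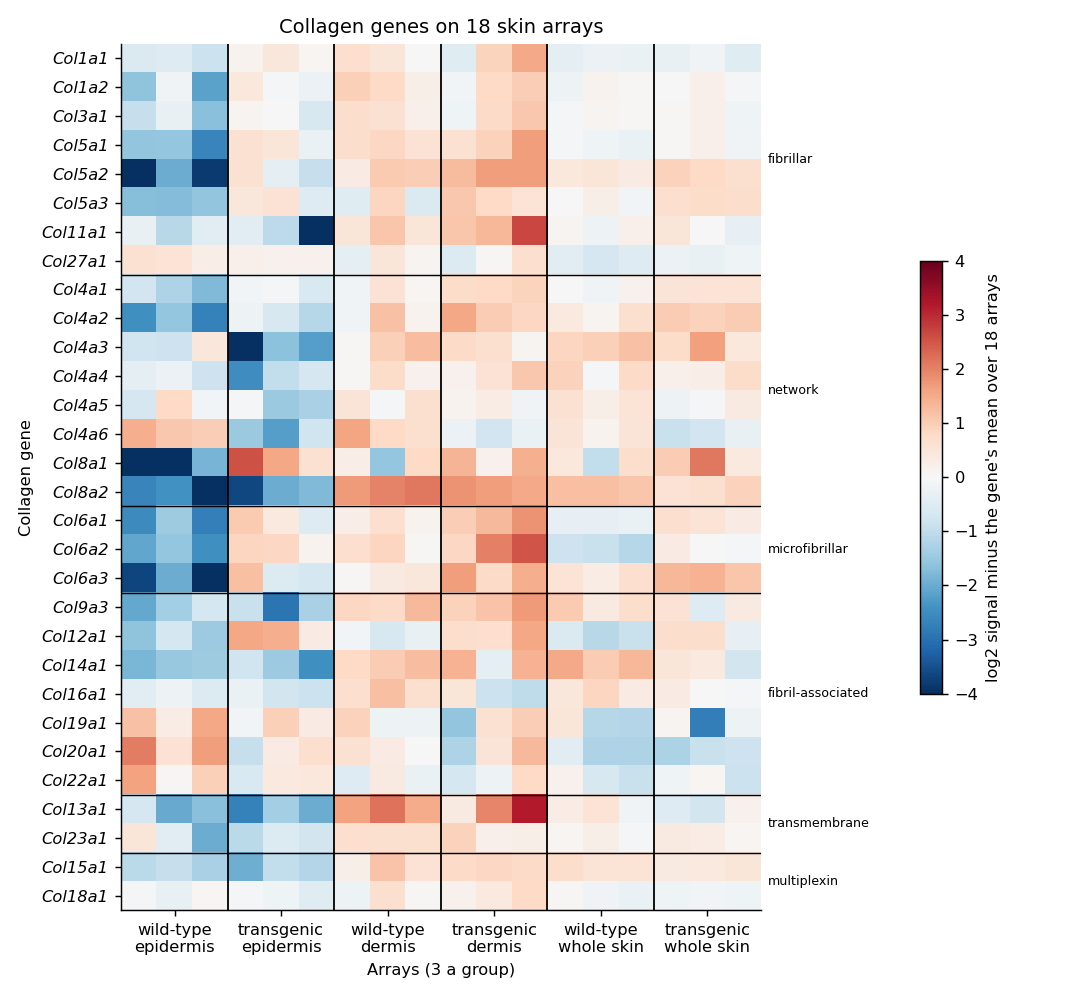
Log2 signal of each tested collagen gene on each of the 18 arrays minus the gene's mean over all arrays, with rows grouped by structural type and columns by group; colours stop at 4 above or below the mean. The wild-type epidermis columns are blue for Col5a2, Col8a1 and the collagen VI genes, where transgenic epidermis is paler or red, and Col4a6 has the opposite order.

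The genes that make, export and cross-link collagen were read beside the collagens themselves. None of the 37 tested genes on the 4 lists was called between genotypes in epidermis, against 1.54% of all genes called higher and 0.844% lower. Of 6 tested genes of collagen folding and export, 0 were called and 4 were higher at an unadjusted p under 0.05, where 8.79% of all genes were higher and 8.83% lower, with a list median of 1.12. Serpinh1, the collagen-specific chaperone HSP47, averaged 9.31 in transgenic and 7.96 in wild-type epidermis (1.34 ± 0.37, limma adjusted p = 0.094). Of 14 tested prolyl and lysyl hydroxylation genes, 0 were called, with 5 higher and 1 lower unadjusted. Of 9 processing and cross-linking genes 0 were called and 4 were higher unadjusted, and of 8 receptor genes 0 were called, 1 higher and 2 lower unadjusted. In dermis 0 of the 37 were called, and 1 gene was lower at an unadjusted p under 0.05, against 2.25% of all genes. In whole skin 1 of the 37 was called, where 1.71% of all genes were called higher and 1.08% lower. It was Pcolce2, an enhancer of procollagen C-proteinase, at 9.28 in transgenic and 10.02 in wild-type skin (-0.74 ± 0.10, limma adjusted p = 0.0092).

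Between wild-type layers, where 12.7% of all genes were called higher in dermis, 4 of 6 folding and export genes were, namely Serpinh1 (2.40), Sparc (2.20), Mia3 (1.88) and Ppib (1.54). Of the processing and cross-linking genes, 5 of 9 were higher, with Pcolce2 (3.71), Pcolce (3.68), Lox (1.98), a lysyl oxidase that cross-links collagen, and Tll1 (3.36) having the smallest adjusted p. The receptor genes Ddr2 (2.48) and Itga1 (2.23) and the hydroxylase genes P3h3 (2.97) and Plod1 (1.36) were called higher, 2 of 8 and 2 of 14, the latter a share near that of all genes. In transgenic skin, 10.6% of all genes were called higher in dermis and 6.67% lower. Of 6 folding and export genes 0 were called between layers there. Of 14 hydroxylation genes 2 were lower in dermis, P4ha1 (-1.54) and P3h2 (-1.24). Higher in transgenic dermis were 3 of 9 processing and cross-linking genes, Tll1 (4.19), Pcolce (2.27) and Pcolce2 (2.71). The same held for 2 of 8 receptor genes, Itga1 (2.25) and Ddr2 (1.77).

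Markers of other cells were measured on the same arrays. The share of all genes called higher in transgenic epidermis was 1.54%, and 0.844% were called lower. In epidermis, 1 of 15 fibroblast markers was called higher in transgenic mice (Pdgfrb, 2.48, limma adjusted p = 0.00527), and the list median was 0.26. Vim, Dpt and S100a4, the brightest of that list, differed by 0.40, 1.09 and 0.70 and were not called. Of the list, Mfap5 and Pi16 averaged under the filter in transgenic epidermis. Acta2 was the called gene of 8 mural cell markers (2.58, limma adjusted p = 0.0178). On that list 5 genes lay above 0, the median was 0.243 and the lowest difference -1.08. Of 12 endothelial markers Flt1 was called (2.18, limma adjusted p = 0.0171), with a sum of 7.87 to 8.25 against 7.46 to 8.16. Only 4 of these 12 markers lay above 0, with a median of -0.229 and a lowest difference of -2.27. Ctss (1.78) and C1qc (2.82) were called among 9 macrophage markers.

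No marker of 6 adipocyte, 6 Schwann cell or 10 skeletal muscle genes was called in epidermis, with 3, 2 and 0 of them lower at an unadjusted limma p under 0.05. At that threshold 8.83% of all genes were lower. Of 12 differentiated keratinocyte markers, Flg (2.90) and Casp14 (2.54) were called higher in epidermis. The list had 6 of 12 above 0, a median of -0.058 and 2 lower at an unadjusted limma p under 0.05. In whole skin, 1.71% of all genes were called higher in transgenic mice and 1.08% lower. Lum was called lower among 15 fibroblast markers (-0.53, limma adjusted p = 0.033), whose median was 0.025. Flt1 was called higher (1.03) among 12 endothelial markers, of which 5 lay above 0 with a median of -0.036. Of 12 differentiated keratinocyte markers 4 were called higher, with 10 above 0 and a median of 0.158. The summed fibroblast signal there was 13.53 to 13.71 in transgenic and 13.64 to 13.70 in wild-type skin. 
The 10 collagens under the filter were Col2a1, Col6a4, Col6a5, Col9a1, Col9a2, Col10a1, Col11a2, Col24a1, Col25a1 and Col26a1, several of them cartilage genes. Their values lay between -1.31 and 5.46 over all arrays, and none was called in any comparison when the filter was lifted. Whole skin, which holds both layers, lay between the means of the layers in 17 of 30 collagens in wild-type mice and in 20 of 30 in transgenic mice. In wild-type mice 7 collagens were above both layers, Col6a3 and Col14a1 among them, and 6 below both, Col4a6 and Col18a1 among them.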

How the data were processed

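RNA of 18 skin samples was labelled with the WT Ovation Pico system and hybridised to Affymetrix mouse arrays, per the labels. The deposited table holds log2 signals of 45037 probe sets; the submitters' processing notes name MAS5 and give no version, and what was done between scan and table is otherwise not given in the sources used here. Array values ran from -7.52 to 14.42, and the 2% trimmed mean of the linear signal was 98.92 to 99.52 on every array, so no further scaling was applied. The number of arrays limits the precision. MAS5 subtracts background probe by probe, which makes dim genes noisy. No 2 of the 153 array pairs were identical.

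Of the probe sets, 34945 had 1 symbol in the platform annotation, 932 several and 9160 none; 34741 identifiers were found in RefSeq and 0 symbols changed. Each gene took its brightest probe set, and genes above the 30th percentile of probe set means were kept. Comparisons used limma 3.58.1 in R 4.3.3 (lmFit, eBayes with an intensity trend, 2-sided) on the compared arrays alone, because the spread was larger in the layers than in whole skin. Every collagen called was named, with a fixed set of 14 chains in each genotype comparison, up to 4 called genes of each pathway list and up to 3 of the brightest of each marker list, besides the called markers. The members, lists and tests were chosen with earlier results of these data known. Alternatives were another normalization, filter, probe set rule, set of arrays, trend, replicate block and leaving out arrays.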

Additional observations from a re-analysis of the deposited data

Results flagged for a closer look

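Col27a1, a fibrillar collagen gene, had opposite signs in 2 tissues. It was lower on every transgenic epidermis array (mean 6.02 against 6.32, log2 difference -0.29) and higher on every transgenic whole skin array (mean 5.62 against 5.30, log2 difference 0.31). Neither difference was called by limma (adjusted p = 0.616 and 0.341), and the difference between the tissues was not tested. A second Col27a1 probe set differed by -1.16 and -0.07.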

How the results depend on the processing

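With every array in 1 fit, which pools the spread of layers and whole skin, the transgenic layer comparison called 17 collagens in place of 10, the epidermis comparison 13 in place of 9 (1044 genes in all in place of 327), and whole skin 0 in place of 6 (37 genes in place of 384). Without the intensity trend 1 collagen was called in epidermis, Col6a2, and 0 in whole skin, where the 6 had limma adjusted p from 0.0529 to 0.105. Leaving out 1 array gave 14 to 20 calls between wild-type layers, 5 to 15 between transgenic layers, 1 to 14 in epidermis, 0 to 1 in dermis, 2 to 7 in whole skin and 0 for the difference between tissues. Of 723 values of called collagens under alternatives, 624 kept direction and call, 99 kept the direction only and 0 reversed. Other normalizations, filters and probe set rules stayed within 1.5 times each count. Deviations of same-numbered arrays from their group means correlated at -0.345 to 0.404. Between layers the values were 0.024, -0.068 and 0 in wild-type mice and 0.404, 0.176 and -0.042 in transgenic mice. They do not settle whether the numbers pair arrays of an animal. With the replicate block 19, 12, 8, 0, 6 and 0 collagens were called in the 6 comparisons.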
